A study of Mus musculus with 6 samples.

Results

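The genes followed here serve iron handling and metal binding in the liver: the hepcidin genes *Hamp* and *Hamp2*, the iron exporter ferroportin (*Slc40a1*), the carrier transferrin (*Trf*), its receptor (*Tfrc*), the ferroxidase ceruloplasmin (*Cp*), the ferritin chains *Ftl1* and *Fth1*, and the metallothioneins *Mt1* and *Mt2*. The rule that lists them rests on their function and uses no measured value, but they were chosen with earlier results of these data known. They are 10 of the 54115 genes to which reads were summed. All 10 passed the filter on low counts, together with the rest of the 12524 genes tested.

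The livers came from 3 WT and 3 *Sirt7* KO male mice, all 24 months old and all fasted for 16 h before dissection. SIRT7 is a nuclear deacylase of the sirtuin family. The KO is a germline deletion in a line of mixed strain origin that was backcrossed to C57BL/6J mice. The deletion was therefore present in every cell type and throughout life, and the WT mice were littermates from crosses of heterozygous parents. RNA of whole liver was amplified by a full-length cDNA protocol from a small input and sequenced as single-end reads.

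Body iron is set by the liver hormone hepcidin, which hepatocytes make from *Hamp*. Hepcidin binds ferroportin, the only known cellular iron exporter of mammals, and causes its degradation, so that high hepcidin keeps iron inside cells. Hepatocytes raise *Hamp* transcription through bone morphogenetic proteins (BMPs) of the sinusoidal endothelium, which act through SMAD proteins with hemojuvelin as co-receptor, and through interleukin 6, which acts through STAT3. Ferritin, ferroportin and the transferrin receptor are also controlled after transcription, by iron regulatory proteins that bind hairpins called iron-responsive elements in their mRNAs. Metallothioneins are small cysteine-rich proteins that bind zinc and copper, and their genes respond to zinc through the factor MTF1, to glucocorticoids and to inflammation.

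The promoters of the hepcidin pair are shown first, because the levels of these neighboring genes ran in opposite directions across the livers. Both lie on the minus strand of chromosome 7. The 250 bases before the RefSeq start of *Hamp* are chr7:30944030-30944279 and those of *Hamp2* are chr7:30924182-30924431 (GRCm38.p6, written 5′ to 3′ on the gene's strand). Capitals mark GGCGCC, the core of a BMP-responsive element, and TTCNNNGAA, the core of a STAT site.
Hamp: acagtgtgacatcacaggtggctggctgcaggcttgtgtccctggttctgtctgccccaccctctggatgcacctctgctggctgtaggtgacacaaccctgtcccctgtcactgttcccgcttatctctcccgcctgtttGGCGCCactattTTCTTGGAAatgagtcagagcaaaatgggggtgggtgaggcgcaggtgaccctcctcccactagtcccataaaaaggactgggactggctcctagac
Hamp2: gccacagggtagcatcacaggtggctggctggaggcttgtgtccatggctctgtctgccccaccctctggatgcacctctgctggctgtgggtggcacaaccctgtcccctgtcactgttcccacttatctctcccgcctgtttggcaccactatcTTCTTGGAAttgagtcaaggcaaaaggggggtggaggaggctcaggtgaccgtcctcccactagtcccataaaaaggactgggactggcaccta
The stretches were 89.7% identical in an alignment. The STAT core lay 97 bases before the start in *Hamp* and 94 bases before it in *Hamp2*. GGCGCC lay 109 bases before the start of *Hamp* and had no match in the window of *Hamp2*. Over all 32851 RefSeq windows of 300 bases, searched on both strands, 11.9% held GGCGCC and 8.3% held TTCNNNGAA, so single matches were not rare.

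The promoters of the metallothionein pair are shown because *Mt1* and *Mt2*, neighbors on the plus strand of chromosome 8, moved together. The stretches are chr8:94178839-94179088 for *Mt1* and chr8:94172368-94172617 for *Mt2* (GRCm38.p6). Capitals mark the core of the metal-responsive element to which MTF1 binds, TGCACNC or TGCGCNC on either strand.
Mt1: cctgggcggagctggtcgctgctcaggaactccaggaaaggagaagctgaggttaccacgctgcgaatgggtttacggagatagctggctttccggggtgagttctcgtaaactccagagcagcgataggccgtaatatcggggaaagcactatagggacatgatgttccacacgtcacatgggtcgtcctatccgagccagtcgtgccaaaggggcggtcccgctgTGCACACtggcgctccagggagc
Mt2: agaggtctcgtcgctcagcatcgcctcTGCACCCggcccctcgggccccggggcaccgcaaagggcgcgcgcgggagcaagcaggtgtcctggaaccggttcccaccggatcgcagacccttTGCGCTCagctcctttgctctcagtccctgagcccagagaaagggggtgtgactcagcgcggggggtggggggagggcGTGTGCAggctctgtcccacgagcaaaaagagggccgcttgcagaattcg
Only 46.3% of the aligned bases were identical. The upstream stretch held 1 core in *Mt1* and 3 in *Mt2*. With the 50 bases after the start included, the count was 3 in *Mt1* and 4 in *Mt2*, and 1.97% of all windows held 3 or more. No match in these windows overlaps another. No window of these 4 genes held the TATA box letters TATAAA. Each window ends 50 bases after 1 annotated start, so TATA boxes and cores farther downstream were not searched.

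Iron-responsive elements were searched in the UTRs of the GENCODE M21 transcripts, as the loop CAGTGN (with a last base other than G) closed by 5 paired bases and a bulged C. They were found in 123 of 21866 protein-coding genes, or 0.563%, and 4 of the 10 genes were among these. The loop is in capitals.
Fth1, 5′ UTR, chr19:9982732-9982760, plus strand: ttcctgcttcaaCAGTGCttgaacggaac
Ftl1, 5′ UTR, chr7:45459779-45459807, minus strand: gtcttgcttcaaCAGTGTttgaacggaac
Slc40a1, 5′ UTR, chr1:45925465-45925493, minus strand: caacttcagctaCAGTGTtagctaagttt
Tfrc, 3′ UTR, the first of 4, chr16:32631219-32631247, plus strand: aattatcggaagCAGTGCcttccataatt
Elements of a 5′ UTR block translation when an iron regulatory protein is bound, whereas those in the 3′ UTR of *Tfrc* protect the mRNA from decay. Of the genes with an element, only *Tfrc* therefore carries one that is known to act on the mRNA level measured here.

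Each library held between 9994860 and 13424776 reads on transcripts. *Sirt7* itself had 55.2, 45.5 and 47.3 CPM (read counts scaled to library size, with TMM factors) in the WT livers and 28.6, 41.8 and 40.8 in the KO livers, with no overlap. A gene total includes reads from any exon that the deletion left, and its limits are not given in the sources used here. The full-length transcript was assigned 429, 381 and 408 reads in WT and 124, 135 and 77.5 in KO livers. Summed markers of 7 liver cell classes overlapped between the genotypes and were dominated by hepatocyte genes, at 42916 to 54257 CPM. The biological coefficient of variation was 26.4%.

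Per transcript length, the 10 genes spanned a wide range of liver expression. The mean over the 6 livers was 11709 TPM (reads scaled to transcript length and library size) for *Ftl1*, 9980 TPM for *Trf* and 3232 TPM for *Fth1*, which ranked 13, 17 and 45 among all genes. *Hamp* followed with 2314 TPM, *Mt1* with 844 TPM, *Cp* with 282 TPM and *Mt2* with 136 TPM. *Hamp2* and *Slc40a1* were close to each other at 46.5 and 42.1 TPM, and *Tfrc* was lowest at 1.48 TPM, at rank 10339. Their stability among mice differed as widely. The SD of log2 CPM within genotypes was 1.70 for *Hamp*, more than in 99.5% of tested genes, and 1.38 for *Mt2*, 1.32 for *Mt1* and 1.24 for *Hamp2*, more than in 99.1%, 99.0% and 98.8% of genes. *Trf*, at 0.12, and *Fth1*, at 0.15, varied less than most genes.

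No gene of the 10 passed the test of the genotypes (edgeR's quasi-likelihood test, Benjamini-Hochberg adjusted p under 0.05 and a fold change over 1.5), and DESeq2 called 0 as well. The same rule called 0.00798% of all tested genes in edgeR, which is 1 gene, and in DESeq2 2.11% without and 1.81% with length offsets. At an unadjusted edgeR p under 0.05 there were 3 of the 10, against 11.3% of all genes. Of these, *Hamp* and *Slc40a1* were lower in KO livers (2 of 10, against 4.78% of all genes) and *Hamp2* was higher (1 of 10, against 6.54%). The CPM of the genotypes overlapped in all 10 genes, whereas 16.8% of all genes had no overlap. The 3 genes depended on single mice: without WT liver 3 only *Hamp* was left, without KO liver 2 only *Slc40a1*, and without WT liver 1 none of them, while *Mt1* and *Mt2* then came under 0.05.

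**Figure D1:**
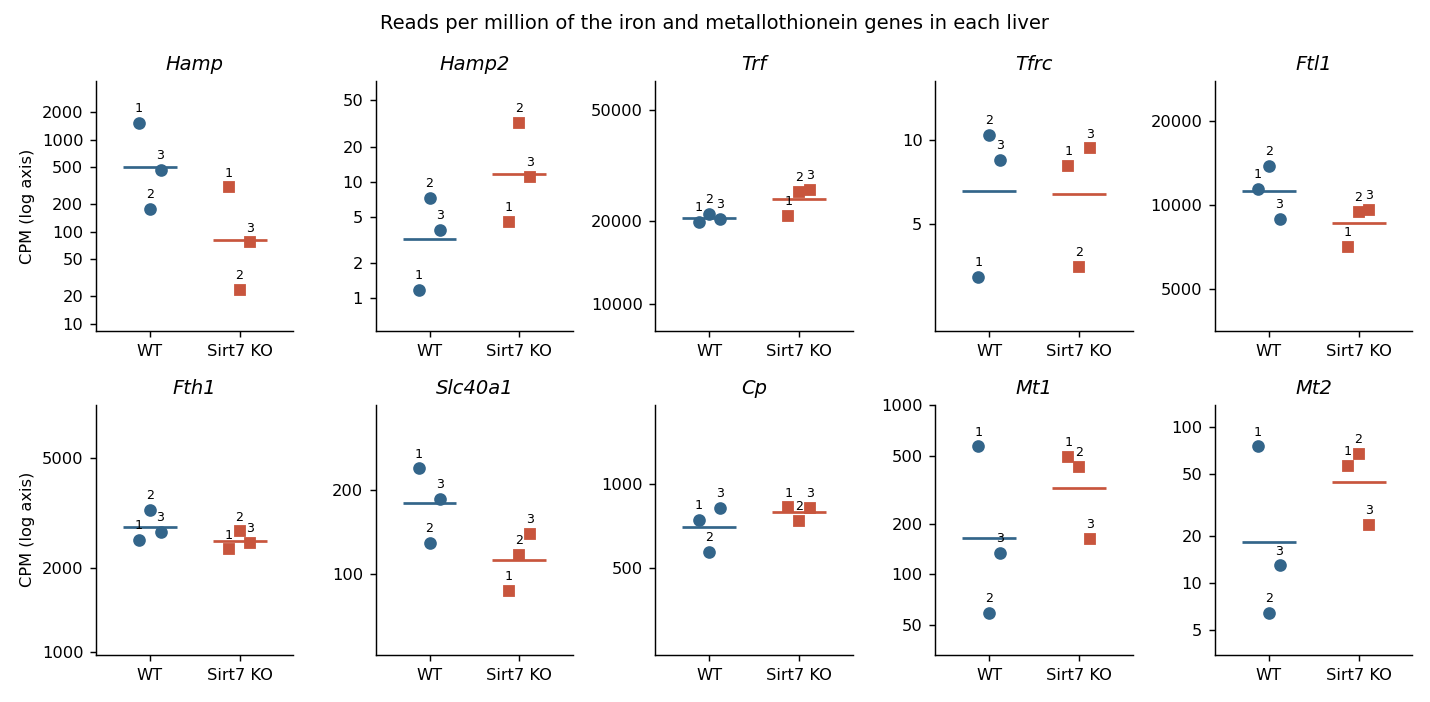
CPM after TMM scaling (log axis, scaled for each gene) in each WT liver (circles) and *Sirt7* KO liver (squares), with the mouse number above the point and the geometric mean as a bar. *Hamp*, *Hamp2*, *Mt1* and *Mt2* spread widely among mice of 1 genotype, *Trf* and *Fth1* lie close together, and the genotypes overlap in every panel.

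*Hamp* (ENSMUSG00000050440.8, chr7:30942368-30944032, minus strand) had 1527, 177 and 473 CPM in WT livers 1 to 3 and 303, 23.5 and 76.4 CPM in KO livers 1 to 3. The highest 2 livers were WT and the lowest 2 were KO, but KO liver 1 lay above WT liver 2. The highest and lowest liver differed 64.9-fold, and the WT livers alone 8.62-fold. The fitted log2 fold change of KO over WT was -2.43 ± 0.95 (SE), a 5.41-fold lower level, with adjusted p = 0.37 by edgeR. It was -1.28 without WT liver 1 (adjusted p = 0.74, edgeR) and -3.86 without KO liver 1 (adjusted p = 0.082, edgeR). An exact 2-sided permutation test of the 6 livers gave p = 0.2, where 0.1 is the smallest that 3 against 3 mice allow. In whole liver, a lower level in each cell cannot be told apart from fewer cells that express the gene. The summed hepatocyte markers were 42916, 47941 and 47049 CPM in WT and 45124, 54257 and 49055 CPM in KO livers, which overlapped. Their part in the level of *Hamp* was not tested.

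*Hamp2* (ENSMUSG00000056978.8, chr7:30922372-30924681, minus strand) is a mouse duplicate of *Hamp* whose peptide is not known to act on iron. Its level was 1.19, 7.26 and 3.85 CPM in WT livers and 4.49, 32.0 and 10.98 CPM in KO livers. The order of the livers was the exact reverse of that of *Hamp*: KO liver 2 was highest and WT liver 1 lowest. The log2 fold change was 1.95 ± 0.74 (SE), with adjusted p = 0.36 by edgeR, and it was 0.92 without KO liver 2 (adjusted p = 0.83, edgeR). The exact permutation p was 0.2.

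Within a library, *Hamp2* took 0.0775%, 3.93% and 0.807% of the reads of both genes in WT livers and 1.46%, 57.6% and 12.6% in KO livers. In KO liver 2 it thus had more reads than *Hamp*, 302 against 222. The log2 ratio of *Hamp* to *Hamp2* was 4.48 lower in KO livers on average, with overlap and an exact permutation p of 0.2. Of the 31-base words of the transcripts of *Hamp*, 33.7% also occur in *Hamp2*, so part of the division of reads between them is an estimate, and its part in this ratio was not tested. Within *Hamp2*, the transcript ENSMUST00000217812.1 was assigned 13.9, 80.3 and 52.2 reads in WT and 48.9, 0 and 64.8 reads in KO livers, which overlap. ENSMUST00000074671.8 had 0 reads in each WT liver and in KO liver 1, but 302 in KO liver 2 and 48.8 in KO liver 3, so the excess of *Hamp2* reads in KO livers was assigned to it. With the reads of both genes summed, the log2 fold change was -2.28 (adjusted p = 0.34, edgeR).

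The genes most like *Hamp* over the 6 livers, among 6680 genes of at least 10 CPM, were *Fgd6* (Pearson r = 0.992), *Usp34* (r = 0.991) and *Tnfrsf12a* (r = 0.990). They share *Hamp*'s order of mice but not its size, since *Fgd6* lay between 10.6 and 14.2 CPM in all livers. These values are a description over 6 libraries of 2 genotypes.

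Regulators of hepcidin on the BMP and HFE side were next. Of 23 tested genes on a list of this arm, 4 were lower in KO livers and 1 was higher at an unadjusted edgeR p under 0.05 (background shares of 4.78% and 6.54%), and edgeR called 0. The median log2 fold change was -0.14, against -0.01 over all tested genes. The 4 lower genes, *Id1*, *Id3*, *Smad7* and *Atoh8*, are transcriptional targets of BMP-SMAD signaling, and *Smad7* encodes an inhibitor of the pathway. They are named for their p, and related genes of the list were less clear. *Id2* (log2 fold change -0.57, edgeR adjusted p = 0.72) and *Smad6* (-0.65, edgeR adjusted p = 0.55) overlapped between genotypes.

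*Id1* had 57.2, 10.2 and 10.4 CPM in WT livers and 11.7, 2.86 and 3.18 CPM in KO livers. WT liver 1 stood far above the rest, and KO liver 1 lay above both other WT livers. Its log2 fold change was -2.12 ± 0.77 (SE), with adjusted p = 0.35 by edgeR. *Id3*, at 253, 70.5 and 59.8 CPM in WT and 46.6, 29.7 and 41.3 CPM in KO livers, was lower in every KO liver. Its log2 fold change was -1.70 ± 0.51 (SE, edgeR adjusted p = 0.25). *Atoh8* was also lower in every KO liver, with 75.7, 19.8 and 22.3 CPM against 14.8, 6.25 and 15.6 CPM and a log2 fold change of -1.68 ± 0.54 (SE, edgeR adjusted p = 0.29). *Smad7* was low throughout, at 2.37 to 12.3 CPM in WT and 0.636 to 3.11 CPM in KO livers, and its log2 fold change was -1.71 ± 0.73 (SE, edgeR adjusted p = 0.42).

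As with *Hamp*, WT liver 1 was the highest of all livers for each of the 4 targets and KO liver 2 was the lowest. Without WT liver 1 the log2 fold changes were -0.79 for *Id1*, -0.74 for *Id3*, -0.57 for *Smad7* and -0.78 for *Atoh8*, and only *Id3* stayed under an unadjusted edgeR p of 0.05 (adjusted p = 0.32). DESeq2 with length offsets called *Atoh8* (adjusted p = 0.024) and no other gene of the arm, and DESeq2 without them called 0. Over the 6 livers, the correlation with *Hamp* was 0.936 for *Id1*, 0.918 for *Atoh8* and 0.859 for *Id3*. By this correlation they ranked 54, 90 and 218 among 6680 genes, so many other genes were more like *Hamp*. The targets were named for their p, and the genotype difference enters these correlations. A link between them and *Hamp* was not tested.

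**Figure D2:**
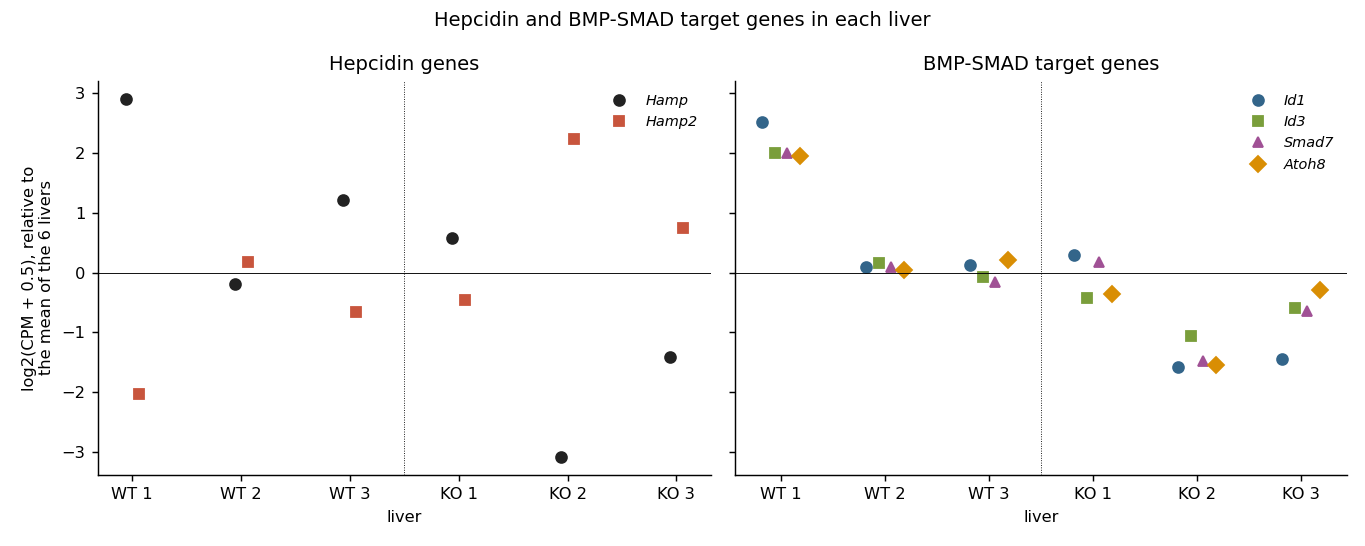
log2(CPM + 0.5) relative to the mean of the 6 livers for the hepcidin genes (left) and 4 BMP-SMAD target genes (right), with 1 column of points for each liver. WT liver 1 has the highest *Hamp* and target gene levels and the lowest *Hamp2*, and KO liver 2 has the lowest *Hamp* and the highest *Hamp2*.

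Values of the ligands, receptors and other regulators follow, and whether they differ from the targets was not tested. *Bmp6*, the main BMP ligand of iron sensing, had 1.92 to 3.54 CPM in WT and 1.35 to 2.29 CPM in KO livers, with a log2 fold change of -0.76 ± 0.42 (SE, edgeR adjusted p = 0.55). *Bmp2*, a further ligand of the sinusoids, had a log2 fold change of -0.06. *Hfe*, which is mutated in hereditary hemochromatosis, and *Tfr2*, the hepatocyte sensor of transferrin iron, had 0.00 and 0.11. Hemojuvelin (*Hfe2* in the annotation) was higher in every KO liver, at 49.5, 49.1 and 49.6 CPM against 39.2, 29.4 and 33.4 CPM. Its log2 fold change was 0.54 ± 0.15 (SE), with adjusted p = 0.22 by edgeR. *Tmprss6*, a protease that cleaves hemojuvelin, had a log2 fold change of 0.33 (edgeR adjusted p = 0.54), which was 0.05 with length offsets.

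On the interleukin 6 side, 1 of 7 tested genes was higher and 0 were lower at an unadjusted edgeR p under 0.05, against 6.54% and 4.78% of all genes. That gene was *Stat3*, which had 144, 103 and 89.0 CPM in WT livers and 184, 199 and 175 CPM in KO livers. Every KO liver was above every WT liver, and the log2 fold change was 0.73 ± 0.19 (SE, edgeR adjusted p = 0.20). DESeq2 called it in both forms, with adjusted p = 0.015 without and 0.012 with length offsets. The receptor genes *Il6ra* and *Il6st* had log2 fold changes of -0.07 and 0.03, and *Socs3*, a target and inhibitor of STAT3, had 0.69 (edgeR adjusted p = 0.49). *Hamp*, also a known STAT3 target, had a log2 fold change of -2.43 (edgeR adjusted p = 0.37). The activity of STAT3 was not measured, and its part in the level of *Hamp* was not tested.

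*Slc40a1* (ENSMUSG00000025993.10, chr1:45908068-45926523, minus strand) encodes ferroportin, through which hepatocytes and Kupffer cells release iron. It had 240, 130 and 187 CPM in WT livers and 86.8, 118 and 140 CPM in KO livers. KO livers were lower except that KO liver 3 lay above WT liver 2. The log2 fold change was -0.69 ± 0.25 (SE), a 1.62-fold lower level, with adjusted p = 0.34 by edgeR. It was -0.47 without WT liver 1, and the exact permutation p was 0.2. Kupffer cell markers, summed over 8 genes with reads in every library, were 68.0, 73.2 and 185 CPM in WT and 176, 64.9 and 133 CPM in KO livers. These sums overlapped, and the part of Kupffer cells in the level of *Slc40a1* was not tested. In whole liver, a lower level in each cell cannot be told apart from fewer cells that express the gene. The genes most like *Slc40a1* were *Slc38a2* (r = 0.991), *Efhd2* (r = 0.988) and *Fam98c* (r = 0.983).

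*Trf* (ENSMUSG00000032554.15, chr9:103204001-103230444, minus strand), which hepatocytes secrete as the plasma carrier of iron, had 19765, 21065 and 20326 CPM in WT and 20807, 25334 and 25714 CPM in KO livers. KO livers 2 and 3 were the highest and KO liver 1 lay within the WT range. The log2 fold change was 0.23 ± 0.20 (SE, edgeR adjusted p = 0.71). Of its 31-base words 60.6% also belong to the overlapping gene *Gm20425*, to which no reads were assigned. The genes most like it were *Stambp* (r = 0.989), *Tgds* (r = 0.986) and *Acsm1* (r = 0.986).

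*Tfrc* (ENSMUSG00000022797.16, chr16:32608920-32632794, plus strand) had 3.22, 10.4 and 8.51 CPM in WT and 8.06, 3.50 and 9.34 CPM in KO livers, from 33 to 115 reads. The lowest 2 livers were WT liver 1 and KO liver 2, which are the livers with the most and the least *Hamp*. The log2 fold change was -0.08 ± 0.47 (SE, edgeR adjusted p = 0.97), and it changed sign when WT liver 2, WT liver 3 or KO liver 2 was left out (0.25, 0.04 and 0.24). The full-length transcript, which carries the 3′ elements, was assigned 15.7%, 26.9% and 48.5% of these reads in WT and 100%, 100% and 68.1% in KO livers. The rest went to a transcript with a retained intron. The shares did not overlap, but they rest on few reads that Salmon divided between transcripts, and they were not tested. The genes most like *Tfrc* were *Hcfc1r1* (r = 0.996), *Tdg* (r = 0.963) and *Tmcc1* (r = 0.959).

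*Cp* (ENSMUSG00000003617.16, chr3:19957054-20009145, plus strand) encodes the copper protein that oxidizes iron for loading onto transferrin. It had 743, 568 and 822 CPM in WT and 824, 736 and 821 CPM in KO livers, so only WT liver 2 stood apart. The log2 fold change was 0.16 ± 0.17 (SE, edgeR adjusted p = 0.79). The main transcript was assigned 68.7% to 75.7% of its reads in WT and 58.9% to 72.4% in KO livers. The genes most like *Cp* were *Crbn* (r = 0.972), *2310061I04Rik* (r = 0.964) and *Plpp6* (r = 0.955).

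The ferritin chains form the shell that stores iron, *Ftl1* the light and *Fth1* the heavy chain with its ferroxidase site. *Ftl1* (ENSMUSG00000050708.16, chr7:45457944-45459884, minus strand) had 11390, 13863 and 8928 CPM in WT and 7080, 9456 and 9582 CPM in KO livers. KO livers 2 and 3 lay above WT liver 3 and below the other two. The log2 fold change was -0.39 ± 0.23 (SE, edgeR adjusted p = 0.58). Of the words of *Ftl1*, 54.4% also occur in *Ftl1-ps1*, a related gene that the annotation lists as protein-coding. It was assigned 1993 to 4540 reads, and with related copies added the log2 fold change of *Ftl1* was -0.38. *Fth1* (ENSMUSG00000024661.7, chr19:9980598-9985098, plus strand) had 2525, 3235 and 2712 CPM in WT and 2338, 2712 and 2472 CPM in KO livers. The ranges overlapped, and the log2 fold change was -0.17 ± 0.17 (SE, edgeR adjusted p = 0.76). The ratio of *Ftl1* to *Fth1* reads was 4.51, 4.29 and 3.29 in WT and 3.03, 3.49 and 3.88 in KO livers, which overlapped (exact permutation p = 0.3).

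**Figure D3:**
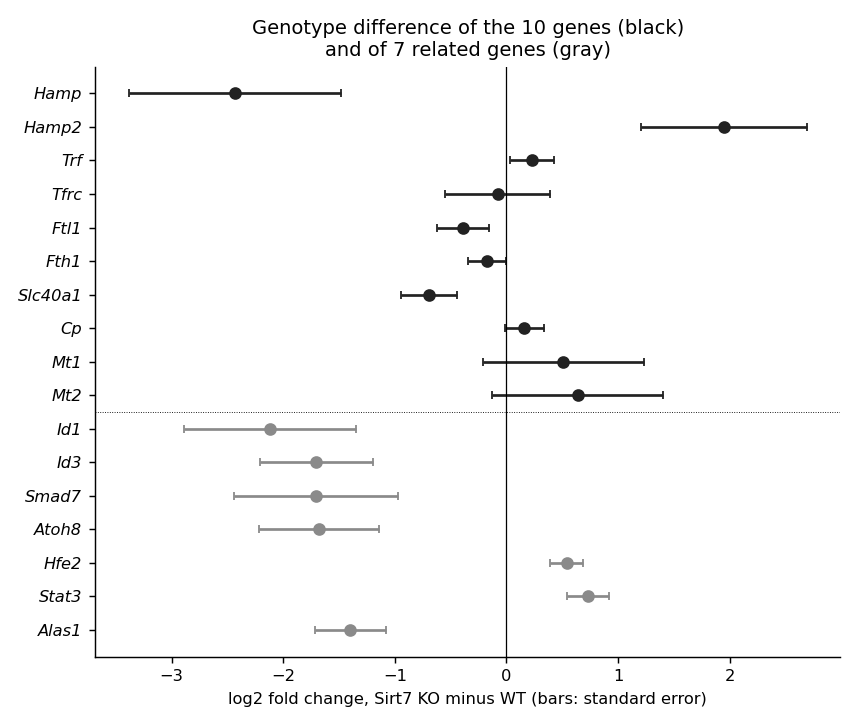
Fitted log2 fold change of *Sirt7* KO over WT (points) with its standard error (bars) for the 10 genes in black and for 7 related genes in gray. *Hamp*, at -2.43, and *Hamp2*, at 1.95, are farthest from 0 among the 10. The widest bars of the 10 are those of *Hamp* and *Mt2*, while *Tfrc*, *Trf*, *Fth1* and *Cp* lie near 0. No gene shown passed the adjusted threshold in edgeR.

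Around the ferritins, 2 of 9 tested genes of iron sensing and ferritin turnover were lower and 0 were higher at an unadjusted edgeR p under 0.05 (4.78% and 6.54% of all genes), and 0 were called by edgeR or DESeq2. They were the iron chaperones *Pcbp1* (log2 fold change -0.48, edgeR adjusted p = 0.41) and *Pcbp2* (-0.56, edgeR adjusted p = 0.20), which load iron into ferritin. *Pcbp2* was lower in every KO liver, at 35.3, 30.2 and 30.4 CPM against 52.2, 44.6 and 44.3 CPM. The iron regulatory proteins *Aco1* and *Ireb2* had log2 fold changes of 0.46 and 0.23, *Fbxl5*, which degrades *Ireb2* protein, had 0.13, and the ferritinophagy receptor *Ncoa4* had -0.05, all at an edgeR adjusted p of 0.49 or above.

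Of 22 tested genes of iron and heme uptake and export, 2 were higher and 3 lower at an unadjusted edgeR p under 0.05, against 6.54% and 4.78% of all genes. *Scara5*, a receptor for ferritin, had 3.56, 0.181 and 0.592 CPM in WT livers and 8.06, 9.96 and 10.02 CPM in KO livers. Every KO liver was above every WT liver, with a log2 fold change of 2.69 ± 0.73 (SE, edgeR adjusted p = 0.22), and it was 4.50 without WT liver 1. *Steap4*, a metalloreductase, was higher in every KO liver as well, at 99.4, 79.3 and 96.1 CPM against 61.0, 32.7 and 55.3 CPM (log2 fold change 0.88, edgeR adjusted p = 0.20). *Slc48a1*, which carries heme out of lysosomes, had 49.5 to 51.2 CPM in KO livers against 61.3 to 86.6 CPM in WT livers (-0.59, edgeR adjusted p = 0.22). DESeq2 called *Steap4* without length offsets, and *Steap4* and *Scara5* with them. The importers *Slc11a2* and *Slc39a14* had log2 fold changes of 0.00 and 0.01, haptoglobin (*Hp*) had 0.11, hemopexin (*Hpx*) 0.45 and heme oxygenase 1 (*Hmox1*) 0.20.

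Heme synthesis, the largest user of iron in the body, had 1 gene higher and 1 lower of 9 at an unadjusted edgeR p under 0.05 (6.54% and 4.78% of all genes), and these encode the same step. *Alas1*, the rate-limiting enzyme of the liver, had 647, 1070 and 1434 CPM in WT and 274, 400 and 521 CPM in KO livers. *Alas2*, its erythroid counterpart, had 49.6, 94.5 and 90.2 CPM in WT and 129, 198 and 235 CPM in KO livers. Neither overlapped between genotypes, and the log2 fold changes were -1.40 ± 0.32 and 1.26 ± 0.29 (SE), both with an edgeR adjusted p of 0.17. DESeq2 called both (adjusted p = 0.00015 and 0.00052 without length offsets). Erythroid markers, a list that includes *Alas2*, summed to 547, 452 and 374 CPM in WT and 826, 446 and 916 CPM in KO livers. In that sum KO liver 2 lay in the WT range, and the other KO livers lay above every WT liver. The part of erythroid cells in the level of *Alas2* was not tested.

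*Mt1* (ENSMUSG00000031765.8, chr8:94179082-94180327, plus strand) had 572, 59.0 and 134 CPM in WT and 494, 433 and 162 CPM in KO livers. *Mt2* (ENSMUSG00000031762.7, chr8:94172664-94173568, plus strand) had 74.9, 6.44 and 13.0 CPM in WT and 56.1, 67.3 and 23.6 CPM in KO livers. In both genes WT liver 1 was the highest of all 6 and WT livers 2 and 3 were the lowest, so the KO livers lay between them.

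The log2 fold changes were 0.51 ± 0.72 (SE, edgeR adjusted p = 0.84) for *Mt1* and 0.64 ± 0.76 (SE, edgeR adjusted p = 0.81) for *Mt2*. They depended on single WT livers. Without WT liver 1 they rose to 1.91 ± 0.52 and 2.32 ± 0.48 (SE), with adjusted p of 0.30 and 0.20 by edgeR. Without WT liver 2 they were 0.04 and 0.16. *Mt2* was the gene most like *Mt1* over the 6 livers (r = 0.987), followed by *Junb* (r = 0.972) and *Rab10* (r = 0.961). The ratio of *Mt1* to *Mt2* reads was 7.63, 9.16 and 10.3 in WT and 8.80, 6.44 and 6.87 in KO livers, which overlapped (exact permutation p = 0.2). None of the words of *Mt1* occur in another gene, so these 2 genes do not exchange reads. *Mt2* shares 57.6% of its words with *Gm45774*, which stayed under 3.2 CPM.

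Among 19 tested acute-phase plasma proteins of the liver, 7 were higher and 0 lower in KO livers at an unadjusted edgeR p under 0.05, against 6.54% and 4.78% of all genes. The median log2 fold change was 0.51. *Orm2*, an orosomucoid, had 31.7, 11.7 and 16.9 CPM in WT and 88.4, 46.6 and 60.6 CPM in KO livers (log2 fold change 1.70, edgeR adjusted p = 0.15). *Orm3* (1.09) and the fibrinogen chain *Fga* (0.87) were also higher in every KO liver. edgeR called 0 of the list, and DESeq2 called 5 without and 4 with length offsets, where it called 2.11% and 1.81% of all genes.

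The serum amyloid genes *Saa1* and *Saa2* and lipocalin 2 (*Lcn2*), chosen here after their values were seen, had the pattern of the metallothioneins instead. *Saa1* had 631, 26.5 and 67.1 CPM in WT and 466, 217 and 216 CPM in KO livers. *Lcn2*, which binds bacterial iron carriers, had 129, 12.8 and 22.6 CPM in WT and 108, 75.1 and 60.8 CPM in KO livers. WT liver 1 was again highest and WT livers 2 and 3 lowest. The correlation with *Mt1* over the 6 livers was 0.950 for *Lcn2*, 0.949 for *Saa2* and 0.936 for *Saa1*, and that of the same genes with *Hamp* was 0.103 to 0.212.

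**Figure D4:**
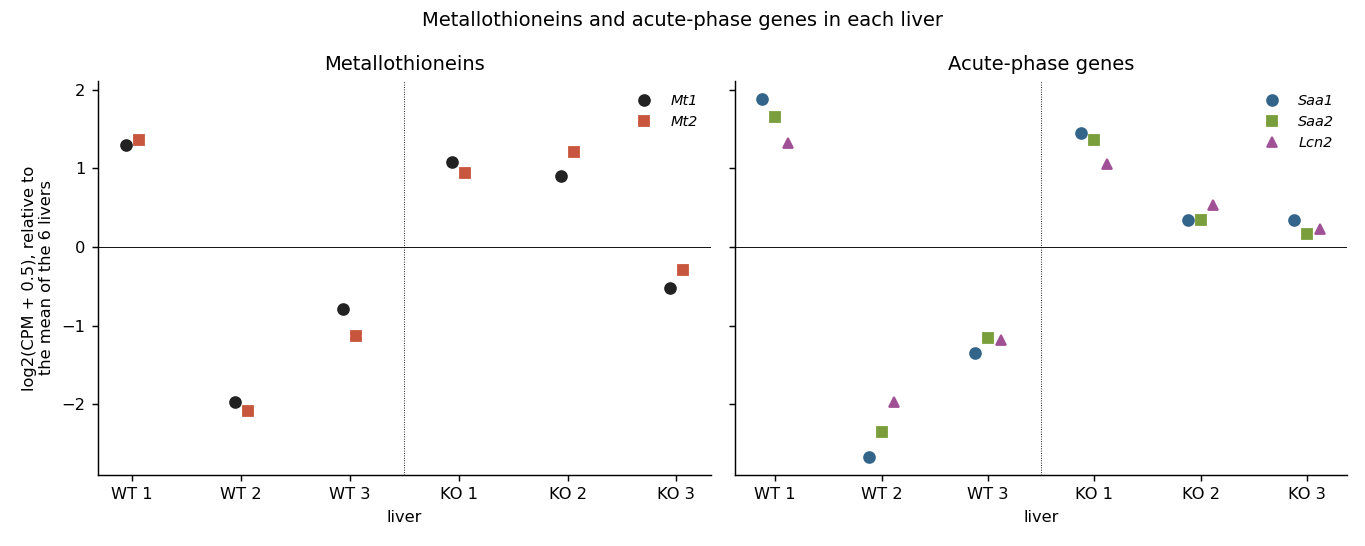
log2(CPM + 0.5) relative to the mean of the 6 livers for *Mt1* and *Mt2* (left) and for *Saa1*, *Saa2* and *Lcn2* (right), with 1 column of points for each liver. All 5 genes are highest in WT liver 1 and lowest in WT livers 2 and 3, with the 3 KO livers between.

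Among 19 tested genes of zinc transport and sensing, 2 were higher and 2 lower at an unadjusted edgeR p under 0.05, against 6.54% and 4.78% of all genes. The transporter gene *Slc39a11* had 17.7, 22.95 and 24.8 CPM in WT and 35.3, 41.8 and 40.2 CPM in KO livers, without overlap (log2 fold change 0.84, edgeR adjusted p = 0.15). DESeq2 called it without length offsets (adjusted p = 0.011) but not with them (adjusted p = 0.082). *Slc39a10* (-1.37, under 2 CPM in every liver) and *Slc39a13* (-0.64) were lower in every KO liver. *Mtf1*, the zinc sensor that drives metallothionein genes, had a log2 fold change of -0.10, and its zinc exporter target *Slc30a1* had -0.29. *Slc30a10*, an exporter of manganese, ranged from 0 to 11.9 CPM, with 0.89 ± 0.91 (SE).

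Of 10 glucocorticoid-responsive genes, 2 were lower and 0 higher at an unadjusted edgeR p under 0.05 (4.78% and 6.54% of all genes), with a median log2 fold change of -0.32. *Fkbp5* had 42.6, 42.9 and 74.4 CPM in WT and 20.2, 27.9 and 30.6 CPM in KO livers, and *Per1* had 14.5 to 21.3 against 4.85 to 14.4 CPM. Both were lower in every KO liver, at log2 fold changes of -1.02 and -0.90 (edgeR adjusted p = 0.19 and 0.37). With length offsets in edgeR, that of *Per1* was -0.39 (adjusted p = 0.83). DESeq2 called *Fkbp5* in both forms. Of 9 tested copper genes other than *Cp*, 0 passed any threshold in edgeR or DESeq2, and *Atp7b*, which loads copper onto ceruloplasmin, had a log2 fold change of -0.28 (edgeR adjusted p = 0.59).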

How the data were processed

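RNA-seq libraries of liver from 3 WT and 3 *Sirt7* KO mice were used, grouped by their labels. Per the labels and methods, reads passed through Trim Galore 0.6.5 and then Salmon 1.2.1, with a GRCm38 transcriptome. The deposited values are estimated counts per transcript without normalization. TPM and transcript lengths were deposited beside them. The annotation release is not given in the sources used here.

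Of 140992 transcripts, 1201 had no gene in GENCODE M21 and were left out (0.303% to 0.492% of reads). Estimated counts were summed per gene and rounded. edgeR 4.0.16 (R 4.3.3) was used with TMM scaling and filterByExpr (minimum count 10), with p-values adjusted by Benjamini-Hochberg over all tested genes. CPM carry TMM scaling, and the pseudocount for log2 values was 0.5. Alternatives included DESeq2 1.42.0 with and without length offsets, other scalings and filters, and leaving out each mouse. The fit was tested on simulated data. Mice of 1 genotype differed by more than sampling noise (chi-square of at least 17.5 per gene).

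The 10 genes and all lists were chosen with earlier results of these data known. Named were the 10 genes, regulators by role, the 3 largest changes of each list at an unadjusted p under 0.05, and the 3 genes most like 6 of the 10. Replicate numbers are not stated to mark shared litters, and the deviations of same-numbered livers correlated at 0.065, 0.073 and -0.047, so they were not taken as pairs. Promoters of 8 of the 10 genes (other than *Trf* and *Slc40a1*) were matched to RefSeq windows by symbol. A marker gene of the lists is not reported here.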

Additional observations from a re-analysis of the deposited data

How the results depend on the processing

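Directions of the 10 genes were kept in every alternative except for *Tfrc*, whose log2 fold change of -0.08 became 0.25, 0.04 and 0.24 without WT liver 2, WT liver 3 and KO liver 2 (range without single mice -0.44 to 0.25). The count of the 10 called, 0 in the report, was 4 with no filter on low counts, 2 with the replicate block and 3 at an unadjusted p under 0.05 with the fold change limit. The count at an unadjusted p under 0.05, 3 in the report, was 5 with no filter, 4 with total counts, 2 with DESeq2 in both forms and 1 to 3 without single mice, with the low of 1 without WT liver 3 or KO liver 2. The share of all genes at this threshold, 11.3%, belongs to the fit of the report. It was not computed for the alternatives, so their counts cannot be read against it. Called over all genes were 1 in the report, 2 with total counts, 633 with no filter, 2 with length offsets in edgeR, 257 and 240 with DESeq2 without and with length offsets, 41 with the replicate block, 925 at an unadjusted p, and 0 to 252 without single mice, with 252 without KO liver 1. With no filter, *Hamp* (adjusted p = 4.3e-28), *Hamp2* (2.7e-10), *Slc40a1* (0.023) and *Mt2* (0.037) were called by edgeR. Their log2 fold changes hardly moved. The SE fell from 0.95 to 0.21 for *Hamp*, from 0.74 to 0.27 for *Hamp2* and from 0.76 to 0.20 for *Mt2*. These p-values thus rest on smaller SEs and not on larger differences. The cause of the smaller SEs was not tested. Under the replicate block, *Hamp* (edgeR adjusted p = 0.0089) and *Hamp2* (0.045) were called, while 4 of 6 livers deviated most like their own number. Total counts moved the median of all genes to -0.11 on the log2 scale, against which *Cp* (0.05) and *Trf* (0.12) kept their sign. Ratios between genes kept their sign in all alternatives. An alternative that adds related genes to *Fth1* was not run, because none shares 20% of its words. *Tfrc* rests on 33 to 115 reads per liver and *Hamp2* on 14 to 302, which can limit their precision. Read number is not the only limit, since *Hamp*, with 222 to 18039 reads, had a larger SE (0.95) than *Hamp2* (0.74) or *Tfrc* (0.47).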
